A study of Mus musculus with 12 samples.

Results

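Genes of heterotrimeric G proteins and of RGS proteins were examined in the cortex of mice that had drunk ethanol. The members are the rows of the deposited count table whose gene symbol begins with Gna, Gnb, Gng or Rgs, leaving out antisense transcripts with symbols ending in os and pseudogenes with -ps in the symbol. This gave 59 of the 33024 gene symbols in the table, of which 49 had enough counts to be tested. Of the 59, 16 encode alpha subunits, 5 beta subunits, 12 gamma subunits, 20 RGS proteins and 2 membrane anchors of RGS proteins, and the other 4 (Gnasas1, Gnb1l, Rgs22 and Rgsl1) share the letters of these symbols without being core members of a family.

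RNA from cortex of C57BL/6 mice was sequenced, 7 labelled Control, whose vehicle was plain water, and 5 labelled EtOH. The EtOH mice were offered 20% (v/v) ethanol beside water for 12 h of the dark phase on 35 days, starting at 30 days of age, and then had 14 days without ethanol before behavioural tests, after which tissue was taken. The time between the tests and tissue collection is not given in the sources used here. Both groups were wild type. Intake was voluntary, and the amount drunk by each sequenced mouse is not given in the sources used here.

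A G protein is a switch below a receptor. The activated receptor makes the alpha subunit exchange GDP for GTP, the alpha subunit parts from the beta-gamma dimer, and both then act on enzymes and channels: Gs alpha raises cyclic AMP, Gi/o alpha lowers it, Gq/11 alpha activates phospholipase C beta, and G12/13 alpha acts on the cytoskeleton. RGS proteins speed the hydrolysis of GTP and so end the signal. In neurons of the striatum, the region below the cortex that receives dense dopamine input, Gs signalling from dopamine and adenosine receptors is carried by the alpha subunit of Gnal with the gamma subunit of Gng7, and the RGS protein of Rgs9 works there in a complex with the beta subunit of Gnb5.

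Total counts per mouse lay between 31768076 and 42183029, and each group held 1 deeper library (Control 5 and EtOH 1). Values are given as CPM, that is counts scaled to a common library size, after normalisation by the TMM method, so that 3 counts, taken as the floor of detection, correspond to between 0.0695 and 0.0962 CPM. The tissue was checked against marker genes of brain regions and cell types. The 6 cortical excitatory neuron markers summed to between 2204 and 2673 CPM in Control and to between 2084 and 2650 CPM in EtOH mice, so cortex markers were present in every mouse. All 15 striatum markers were called lower in EtOH mice, with a median log2 fold change of -3.03 (-2.99 with Drd3 at its bound), and their sum was between 984 and 2356 CPM in Control against 227 to 300 CPM in EtOH mice. Of these, the dopamine receptor gene Drd3 had no count in any EtOH mouse and was at least 7.94-fold lower there, taking 3 counts per library as the bound. Of the 10 hippocampus markers, 9 were called higher, with a sum of 108 to 149 CPM in Control against 240 to 333 CPM in EtOH mice. Of the other lists, 1 of 5 thalamus, 1 of 6 cortical excitatory, 1 of 7 astrocyte and 2 of 3 tested choroid plexus markers were called higher, the last with sums of 5.90 to 15.8 CPM in Control and 10.9 to 971 CPM in EtOH mice, while 1 of 5 inhibitory neuron and 2 of 8 oligodendrocyte markers were called lower. None of the 22 tested markers of microglia, endothelium, pericytes with smooth muscle, and blood was called by edgeR, DESeq2 or limma voom, and 5 of them had an unadjusted p under 0.05 in edgeR. The sums of the striatum, inhibitory neuron and microglia lists were lower in each EtOH mouse than in any Control mouse. Those of the hippocampus and thalamus lists were higher, again without overlap. The thalamus gap was narrow, with sums of 41.4 to 49.2 CPM in Control against 49.8 to 68.3 CPM in EtOH mice. Slc17a6 was the 1 thalamus marker called, with means of 14.6 and 30.9 CPM, while the median log2 fold change of that list was -0.14. The part of all these markers in the results on G protein and RGS genes was not tested.

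Of the 49 members tested, 6 were called lower in EtOH mice (edgeR quasi-likelihood test, Benjamini-Hochberg adjusted p under 0.05, log2 fold change beyond 0.5 in size), where 4.09% of all 16059 genes tested were called lower. These were the Gs alpha gene Gnal, the beta subunit gene Gnb5, the gamma subunit gene Gng7 and the RGS genes Rgs9, Rgs4 and Rgs20. Only Rgsl1, 1 of the 49, was called higher, against 4.2% of all genes. The 6 called lower were 12.2% of the members tested and the 1 called higher 2.04%. With no minimum fold change, 14 members were lower at an adjusted p under 0.05, where 11.6% of all genes were, and 4 were higher, where 12.1% of all genes were. Each EtOH mouse lay below each Control mouse in 9 members, a separation seen in 4.96% of all genes, and above in 3 members, against 4.84% of all genes. The median log2 fold change of the members was -0.09, with 29 of 49 negative, while that of all genes was 7.2e-05. In bulk tissue, a different mix of cells in the tissue taken and a different RNA level per cell cannot be told apart. This holds for each value given here.

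**Figure D1:**
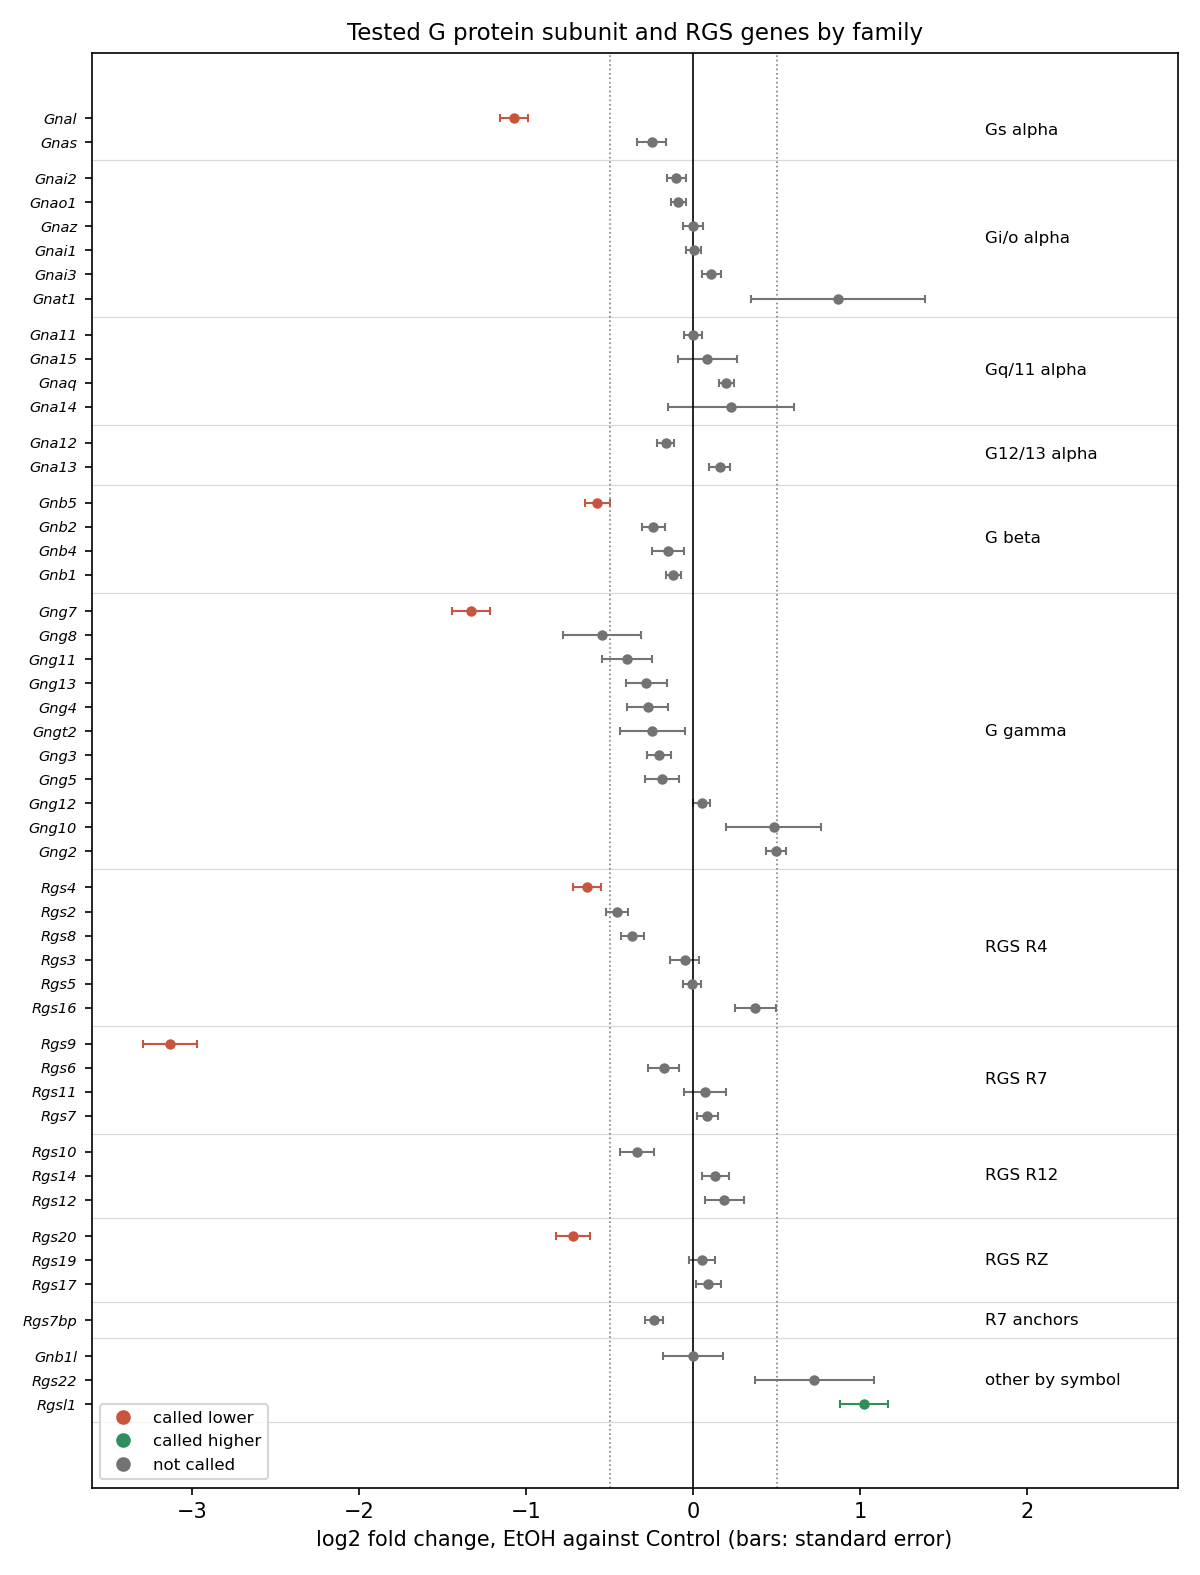
Log2 fold change (EtOH against Control) of each of the 49 tested members, grouped by family, with bars of 1 standard error and dotted lines at the fold change minimum of 0.5 in either direction. The called genes sit in different families, with Rgs9 (-3.13), Gng7 (-1.33) and Gnal (-1.07) farthest to the left and Rgsl1 (1.02) to the right, while most other members lie within the dotted lines.

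Among the alpha subunits, the Gs class held the 1 gene called. Gnal encodes the olfactory type Gs alpha, which couples dopamine and adenosine receptors to adenylyl cyclase in striatal neurons. It lies on chromosome 18 of GRCm39, from 67221287 to 67359863 on the plus strand. In Control mice it had between 209 and 309 CPM with a median of 286 CPM. In the 5 EtOH mice it had 141, 117, 135, 136 and 125 CPM. The groups were far apart, although Control 7 was well below the other Control mice. The mean fell 2.10-fold, from 274 ± 33.7 CPM (SD, n = 7) to 131 ± 9.39 CPM (SD, n = 5), a difference of -1.07 in log2 (standard error, SE, 0.08, adjusted p = 1.03e-07 in edgeR). Exons of Mppe1 on the opposite strand cover 9.11% of the exon bases of Gnal, and whether reads were counted by strand is not given in the sources used here.

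Gnas encodes the Gs alpha found in most tissues. Its level was 130.5 ± 10.3 CPM (SD, n = 7) in Control and 110 ± 16.9 CPM (SD, n = 5) in EtOH mice, a difference of -0.25 in log2 (SE 0.09, adjusted p = 0.0470 in edgeR) that is under the fold change minimum. Control mice had 116 to 144 CPM, a range that also held EtOH 1 and EtOH 3, while the other EtOH mice lay below it and EtOH 2, at 83.0 CPM, was lowest. The adjusted p of Gnas stayed under 0.05 in 5 of the 12 fits that each left out 1 mouse. Levels of different genes were compared as CPM per kilobase of exon, where the length is that of all annotated exons of a gene merged and not of the transcripts expressed, so an order between genes or a share of a class depends on the annotation. On this scale Gnal stood at 24.6 and Gnas at 10.9 in Control mice. In EtOH mice these levels were 11.7 and 9.16. Gnal thus made up 69.1 ± 3.06% (SD, n = 7) of the Gs alpha level per length in Control and 56.2 ± 2.44% (SD, n = 5) in EtOH mice, and it was the larger part in each mouse on this scale. Exons of other genes also cover 9.26% of the exon bases of Gnas.

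None of the 6 tested Gi/o alpha genes was called or reached an adjusted p under 0.05, and 0 had an unadjusted p under 0.05, while DESeq2 and limma voom also called 0. Their log2 fold changes were between -0.10 and 0.87, the largest being that of the retinal gene Gnat1 at a level of 0.303 CPM in Control mice. Gnao1, the main Go alpha gene of brain and the highest alpha gene per length (87.0 CPM per kb in Control), had 994 ± 42.8 CPM (SD, n = 7) in Control and 935 ± 32.5 CPM (SD, n = 5) in EtOH mice, a difference of -0.09 in log2 (SE 0.05, adjusted p = 0.179 in edgeR). Its values overlapped, from 910 to 1040 CPM in Control and from 891 to 961 CPM in EtOH mice.

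Of the 4 Gq/11 alpha genes none was called by edgeR, DESeq2 or limma voom, and 1 had an unadjusted p under 0.05 in edgeR, Gnaq, which was higher by less than the fold change minimum. Gnaq, which links receptors such as muscarinic and metabotropic glutamate receptors to phospholipase C beta, had between 213 and 235 CPM with a median of 225 CPM in Control mice, and 260, 259, 263, 260 and 250 CPM in EtOH mice. The difference was small but left a gap between the groups. Its log2 fold change was 0.20 (SE 0.04, adjusted p = 0.00286 in edgeR). Gna11, its close relative, differed by 0.00 in log2 (SE 0.06, adjusted p = 0.998), with means of 156 CPM in both groups. In the G12/13 class none of 2 genes was called by edgeR, DESeq2 or limma voom, and both had an unadjusted p under 0.05 in edgeR. Gna12 was lower in each EtOH mouse (72.0 to 84.4 CPM) than in any Control mouse (84.9 to 92.6 CPM), with a difference of -0.16 in log2 (SE 0.05, adjusted p = 0.0261 in edgeR). The gap was narrow, the adjusted p was 0.0760 without EtOH 1 and 0.0768 without EtOH 3, and exons of other genes cover 18.6% of its exon bases.

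All 4 tested beta subunit genes had negative log2 fold changes, and 1 was called. Gnb5 encodes the divergent beta subunit that binds RGS proteins of the R7 family in place of a gamma subunit and keeps them stable. It lies on chromosome 9, from 75213524 to 75253203 on the plus strand. Its level was between 122 and 175 CPM with a median of 151.5 CPM in Control mice. In EtOH mice it was 96.5, 102, 98.9, 96.2 and 99.4 CPM. The EtOH mice were close to each other and all below the lowest Control mouse. The mean fell 1.49-fold, from 147 ± 17.7 CPM (SD, n = 7) to 98.7 ± 2.53 CPM (SD, n = 5), a difference of -0.57 in log2 (SE 0.07, adjusted p = 2.63e-05 in edgeR). This was the called member nearest to the fold change minimum.

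Gnb1 and Gnb2 encode the beta subunits of most receptor-coupled heterotrimers. Gnb1, the highest beta gene per length (75.4 CPM per kb in Control), had 656 ± 29.2 CPM (SD, n = 7) in Control and 605 ± 13.6 CPM (SD, n = 5) in EtOH mice, and its log2 fold change of -0.12 (SE 0.05) had an adjusted p of 0.0675 in edgeR. Gnb2 had a difference of -0.24 in log2 (SE 0.07, adjusted p = 0.0169 in edgeR), with overlapping groups of 214 to 263 CPM in Control and 185 to 229 CPM in EtOH mice, and its adjusted p was 0.0569 without EtOH 1 and 0.0513 without EtOH 3. Exons of other genes cover 24.2% of the exon bases of Gnb2. Per length, Gnb5 made up 24.6 ± 1.56% (SD, n = 7) of the beta subunit level in Control and 19.8 ± 0.870% (SD, n = 5) in EtOH mice.

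Of the 11 tested gamma subunit genes, Gng7 was called lower, and Gng2 lay just under the fold change minimum on the higher side. Gng7 encodes the gamma subunit that partners the Gnal product in striatal neurons, and it lies on chromosome 10, from 80784447 to 80850779 on the minus strand. It had between 235 and 420 CPM with a median of 378 CPM in Control mice. In EtOH mice it had 137, 140, 148, 140 and 135 CPM. The Control mice were spread widely, with Control 7 lowest, and the EtOH mice lay in a narrow band below all of them. The mean fell 2.51-fold, from 351 ± 68.6 CPM (SD, n = 7) to 140 ± 4.77 CPM (SD, n = 5), a difference of -1.33 in log2 (SE 0.12, adjusted p = 3.16e-07 in edgeR). A processed pseudogene on the same strand covers 3.05% of its exon bases.

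RefSeq gives 2 starts for Gng7, which lie on the minus strand of chromosome 10. They are shown because the most lowered gamma gene has a choice of start, which gene counts cannot resolve. The windows hold the 250 bases upstream of each start, read on the gene's strand and placed on GRCm39 at chr10:80837200-80837449 and chr10:80850760-80851009. Capitals mark letters of motifs searched on both strands, namely the CRE (TGACGTCA) and its shorter form (TGACG), the TATA box (TATAAA), the CCAAT box (CCAAT) and the GC box (GGGCGG).
Gng7 start 1: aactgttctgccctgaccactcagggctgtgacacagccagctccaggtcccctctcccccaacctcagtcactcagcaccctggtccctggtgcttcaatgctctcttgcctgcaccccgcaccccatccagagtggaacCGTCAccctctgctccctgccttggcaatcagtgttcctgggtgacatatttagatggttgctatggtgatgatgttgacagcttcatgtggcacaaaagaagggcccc
Gng7 start 2: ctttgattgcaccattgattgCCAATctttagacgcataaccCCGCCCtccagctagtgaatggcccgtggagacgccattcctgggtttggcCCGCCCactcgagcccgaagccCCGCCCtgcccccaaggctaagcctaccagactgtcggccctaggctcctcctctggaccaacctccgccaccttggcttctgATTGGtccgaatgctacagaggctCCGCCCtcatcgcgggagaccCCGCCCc
The first window held 1 short CRE match, a motif found in 17.8% of all 32841 RefSeq windows of this length. The second, with 62.8% G and C against a median of 52.4%, held 5 GGGCGG and 2 CCAAT matches, motifs found at least once in 32.7% and 33.9% of all windows. A match describes the letters and is no evidence of binding.

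Gng2 encodes a gamma subunit used widely in cortical neurons. It had between 105 and 136 CPM with a median of 128 CPM in Control mice, and 180, 180, 183, 180 and 159 CPM in EtOH mice. Each EtOH mouse was above each Control mouse, and 4 of the 5 were nearly equal. The log2 fold change was 0.497 (SE 0.06, adjusted p = 1.43e-05 in edgeR), so it was not called. Exons of a long noncoding RNA on the opposite strand cover 13.5% of its exon bases. Gng3, the highest gamma gene per length (57.4 CPM per kb in Control), had a difference of -0.21 in log2 (SE 0.07, adjusted p = 0.0457 in edgeR) with overlapping groups, and its adjusted p was below the threshold in 2 of 12 fits with 1 mouse omitted. Exons of Bscl2 on the opposite strand cover 24.2% of the exon bases of Gng3. Gng11 had a difference of -0.40 in log2 (SE 0.15, adjusted p = 0.0610 in edgeR) with overlapping groups, and it was called lower only when EtOH 2 was left out. Gng5 shares 96.9% of its exon bases with genes on the opposite strand, so its counts are uncertain. It was not called.

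The make-up of the gamma class per length differed between the groups. Gng7 held 25.2 ± 3.96% (SD, n = 7) of the summed gamma level in Control and 12.4 ± 0.281% (SD, n = 5) in EtOH mice. Gng2 held 11.5 ± 1.38% (SD, n = 7) and 19.8 ± 1.17% (SD, n = 5). Gng7 was above Gng2 in each Control mouse and below it in each EtOH mouse, while Gng3 was the largest part in all 12 mice. The summed level was 164 ± 10.3 CPM per kb (SD, n = 7) in Control and 134 ± 5.53 CPM per kb (SD, n = 5) in EtOH mice. Shares within a class depend on one another, and they were given no test.

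**Figure D2:**
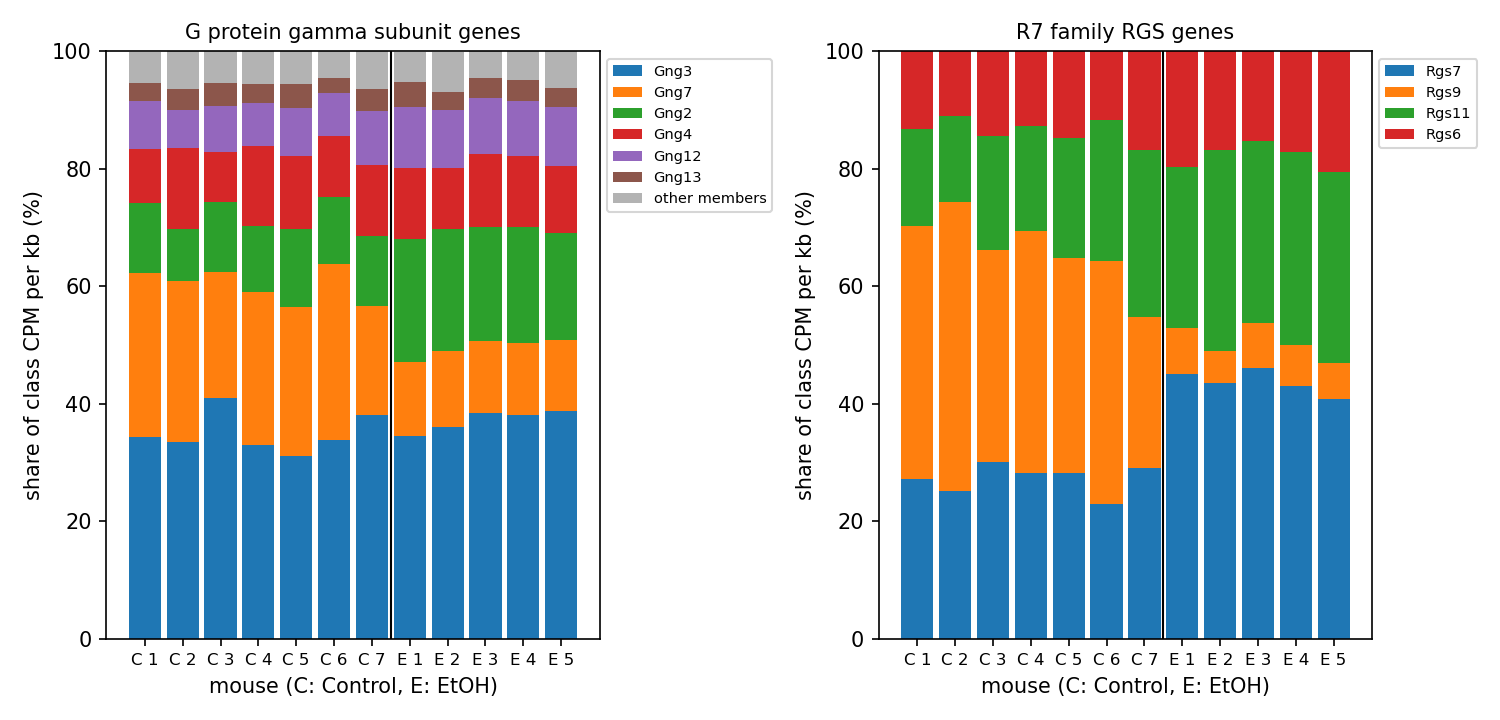
Share of each gene in the summed CPM per kilobase of its class (vertical axis, percent) in each of the 12 mice, for the gamma subunit genes on the left and the R7 family RGS genes on the right, with a line between the 7 Control and 5 EtOH mice. The Gng7 band narrows from a mean of 25.2% to 12.4% and the Rgs9 band from 39.05% to 6.86%.

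The largest difference among the members was that of Rgs9, which encodes an RGS protein of the R7 family that shortens dopamine and opioid receptor signals in striatal neurons and, in another splice form, the light response of photoreceptors. It lies on chromosome 11, from 109116158 to 109189025 on the minus strand. The 250 bases upstream of its RefSeq start, at chr11:109189008-109189257, are shown because Rgs9 differed most, with the same motif letters in capitals.
Rgs9 start 1: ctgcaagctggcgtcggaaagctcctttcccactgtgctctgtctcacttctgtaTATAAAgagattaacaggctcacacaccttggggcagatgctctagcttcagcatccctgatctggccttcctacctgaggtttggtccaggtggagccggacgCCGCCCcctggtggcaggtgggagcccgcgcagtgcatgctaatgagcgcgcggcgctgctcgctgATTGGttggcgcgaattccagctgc
The window held 1 match each to TATAAA, present in 12.4% of all windows, CCAAT and GGGCGG, and none to the CRE letters. In Control mice Rgs9 had between 69.9 and 164 CPM with a median of 128 CPM. In EtOH mice it had 15.3, 12.8, 14.3, 14.1 and 13.6 CPM. The highest EtOH mouse was thus far below Control 7, the lowest Control mouse. The mean fell 8.77-fold, from 123 ± 29.6 CPM (SD, n = 7) to 14.04 ± 0.934 CPM (SD, n = 5), a difference of -3.13 in log2 (SE 0.16, adjusted p = 1.14e-09 in edgeR). Rgs9 was still well above the floor in each EtOH mouse.

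**Figure D3:**
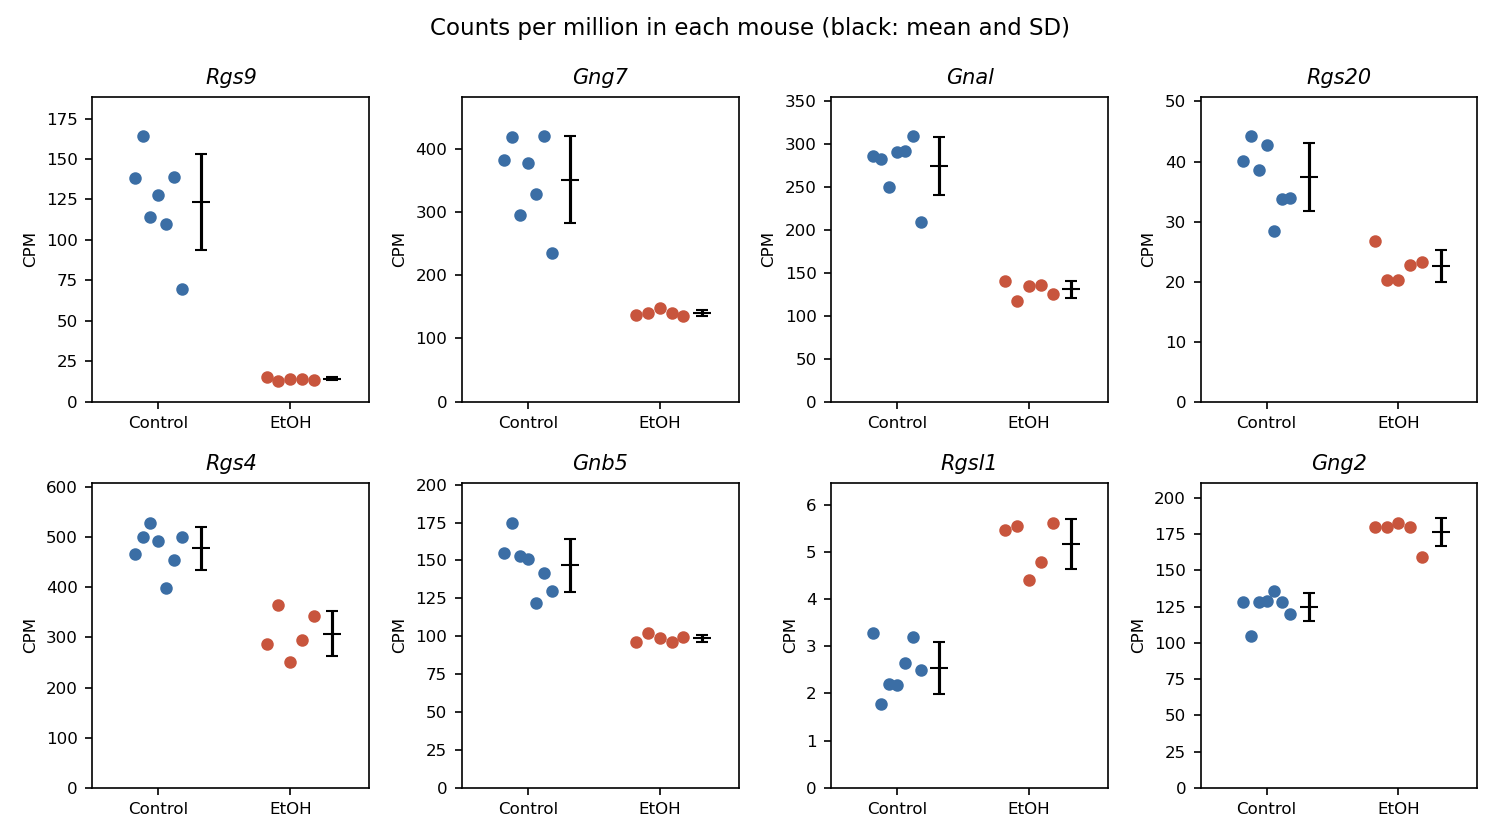
CPM (vertical axis, from 0) in each mouse for the 7 called members and Gng2, with Control mice in blue, EtOH mice in red and the group mean and SD in black. The groups do not overlap in any panel, and EtOH mice are lower in all but Rgsl1 and Gng2.

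The other 3 R7 family genes were not called by edgeR, DESeq2 or limma voom, and 0 of them had an unadjusted p under 0.05 in edgeR. Rgs7 had a difference of 0.09 in log2 (SE 0.06, adjusted p = 0.333 in edgeR), and Rgs6 and Rgs11 had -0.18 and 0.07, with overlapping groups for each. On average, Rgs9 was the highest R7 gene per length in Control mice, with 39.05 ± 7.39% of the class (SD, n = 7), and the lowest in EtOH mice, with 6.86 ± 1.04% (SD, n = 5), while the Rgs7 share was 27.3 ± 2.46% (SD, n = 7) and 43.6 ± 2.04% (SD, n = 5). In Control 7, where the Rgs9 share was 25.6%, Rgs7 and Rgs11 were both above it. Rgs7bp, which encodes the palmitoylated anchor that holds R7 RGS proteins with Gnb5 at the membrane, had between 403 and 470 CPM with a median of 426 CPM in Control mice, and 367, 403, 351, 344 and 374 CPM in EtOH mice. EtOH 2 lay just below the lowest Control mouse, Control 5, though both round to the same value. Its log2 fold change was -0.23 (SE 0.05, adjusted p = 0.00465 in edgeR). The counterpart anchor gene Rgs9bp, known from the retina, had at most 18 counts in any mouse and was not tested.

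The R4 family holds small RGS proteins that consist of little more than the RGS domain. Of its 10 genes, 6 were tested and Rgs4 was called lower. Rgs4, which limits Gi/o and Gq signalling in cortical neurons, was the highest RGS gene per length, at 154 CPM per kb in Control mice. It lies on chromosome 1, from 169569046 to 169575218 on the minus strand, and no other annotated exon overlaps it. It is shown with its upstream window, at chr1:169575212-169575461, because it was the most abundant member called.
Rgs4 start 1: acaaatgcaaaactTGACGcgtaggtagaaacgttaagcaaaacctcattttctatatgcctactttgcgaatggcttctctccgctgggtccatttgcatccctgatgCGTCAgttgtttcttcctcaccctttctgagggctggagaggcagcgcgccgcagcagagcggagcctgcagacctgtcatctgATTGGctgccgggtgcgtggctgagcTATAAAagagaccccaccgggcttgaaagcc
The window held 2 short CRE matches, 1 TATAAA and 1 CCAAT match. In Control mice Rgs4 had between 398 and 529 CPM with a median of 493 CPM. In EtOH mice it had 286, 364, 251, 294 and 343 CPM. The highest EtOH mouse, EtOH 2, lay just below Control 5, the lowest Control mouse. The mean fell 1.55-fold, from 477 ± 42.5 CPM (SD, n = 7) to 307 ± 45.5 CPM (SD, n = 5), a difference of -0.63 in log2 (SE 0.09, adjusted p = 4.5e-05 in edgeR).

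Among the other R4 genes, Rgs2, a regulator that acts mainly on Gq, was lower by less than the fold change minimum. It had between 46.6 and 58.3 CPM with a median of 48.8 CPM in Control mice, and 37.5, 35.7, 34.6, 33.6 and 41.3 CPM in EtOH mice. The groups did not overlap, with EtOH 5 nearest to the Control mice. Its log2 fold change was -0.45 (SE 0.07, adjusted p = 0.000127 in edgeR). Rgs8 had 102 ± 8.49 CPM (SD, n = 7) in Control and 79.4 ± 7.05 CPM (SD, n = 5) in EtOH mice, which is -0.36 on the log2 scale (SE 0.07, adjusted p = 0.00116 in edgeR). Its groups overlapped through Control 7, at 84.4 CPM, and EtOH 1 and 4, at 86.4 and 84.6 CPM. Rgs16 had 5.62 ± 0.727 CPM (SD, n = 7) in Control and 7.26 ± 1.25 CPM (SD, n = 5) in EtOH mice, with a difference of 0.37 in log2 (SE 0.12, adjusted p = 0.0352 in edgeR) and overlapping groups, and its adjusted p stayed under 0.05 in 5 of 12 fits with 1 mouse left out. Exons of a long noncoding RNA on the opposite strand cover 18.7% of the exon bases of Rgs16. Rgs5, a marker of pericytes as well as an RGS gene, had means of 87.7 and 87.2 CPM in Control and EtOH mice, with a difference of -0.01 in log2 (SE 0.05, adjusted p = 0.930 in edgeR).

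In the RZ family, whose members act on Gz and other Gi/o proteins, 1 of 3 genes was called. Rgs20, on chromosome 1 from 4979779 to 5140561, had between 28.4 and 44.2 CPM with a median of 38.6 CPM in Control mice. In EtOH mice it had 26.8, 20.3, 20.3, 22.7 and 23.2 CPM. EtOH 1 came near Control 5, and no EtOH mouse reached the Control range. The mean fell 1.65-fold, from 37.4 ± 5.59 CPM (SD, n = 7) to 22.7 ± 2.66 CPM (SD, n = 5), a difference of -0.72 in log2 (SE 0.10, adjusted p = 7.64e-05 in edgeR). Rgs17, the highest RZ gene per length (9.41 CPM per kb in Control), had a difference of 0.09 in log2 (SE 0.07, adjusted p = 0.390 in edgeR). In the R12 family none of 3 genes was called by edgeR, DESeq2 or limma voom, and 1 had an unadjusted p under 0.05 in edgeR. This was Rgs10, known in microglia and neurons, which had a difference of -0.34 in log2 (SE 0.10, adjusted p = 0.0224 in edgeR) with overlapping groups, and its adjusted p lay between 0.0515 and 0.0573 without EtOH 1, EtOH 4 or EtOH 5. The 7 microglia markers summed to between 296 and 324 CPM in Control and to between 255 and 279 CPM in EtOH mice, with none called, and their part in the value of Rgs10 was not tested. Rgs14, known in hippocampal area CA2, had 55.9 ± 5.42 CPM (SD, n = 7) in Control and 61.3 ± 7.39 CPM (SD, n = 5) in EtOH mice, which is 0.13 on the log2 scale (SE 0.08, adjusted p = 0.240 in edgeR).

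The 1 member called higher was Rgsl1 (regulator of G-protein signalling like 1), on chromosome 1 from 153655127 to 153719888. It had between 1.78 and 3.29 CPM with a median of 2.50 CPM in Control mice, and 5.47, 5.54, 4.41, 4.79 and 5.62 CPM in EtOH mice. The groups were well separated, though the level was low. The mean rose 2.03-fold, from 2.54 ± 0.549 CPM (SD, n = 7) to 5.17 ± 0.535 CPM (SD, n = 5), a difference of 1.02 in log2 (SE 0.15, adjusted p = 7.17e-05 in edgeR). Rgsl1 neighbours Rgs8, from 153528714 to 153576069, and Rgs16, from 153616091 to 153621228, on the same chromosome. These neighbours had log2 fold changes of -0.36 and 0.37, opposite in sign. Rgs4 likewise neighbours Rgs5, from 169483036 to 169524887, whose mean was nearly the same in both groups.

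The 10 members that were not tested had few or no counts. Gnat3, of taste cells, and Rgs21 had no count in any mouse. The highest count in any mouse was 2 for Gnasas1, 6 for Gngt1 and Rgs1, 8 for Rgs18, 13 for Gnat2, 18 for Gnb3 and Rgs9bp, and 20 for Rgs13. Several of these are known from photoreceptors or from blood and immune cells.

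Other genes of G protein signalling that the symbol rule leaves out were counted from a list by role, with 32 genes listed and 31 tested. Of these, 1 was called lower and 1 higher, where 4.09% and 4.2% of all genes were. With no minimum fold change, 7 were lower and 4 higher at an adjusted p under 0.05, where 11.6% and 12.1% of all genes were. Gprin3, a gene for a protein that binds activated Gi/o alpha, was called lower, from 20.1 ± 5.83 CPM (SD, n = 7) to 10.04 ± 1.52 CPM (SD, n = 5), which is -0.998 on the log2 scale (SE 0.19, adjusted p = 0.000892 in edgeR) with overlapping groups. Grk3, a kinase that phosphorylates activated receptors, was called higher, from 106 ± 13.1 CPM (SD, n = 7) to 165 ± 12.5 CPM (SD, n = 5), a difference of 0.64 in log2 (SE 0.08, adjusted p = 1.64e-05 in edgeR) without overlap. Ric8b, the chaperone of Gs alpha and of the Gnal product, had 64.9 ± 5.89 CPM (SD, n = 7) in Control and 46.9 ± 2.72 CPM (SD, n = 5) in EtOH mice. Its log2 fold change of -0.47 (SE 0.07, adjusted p = 7.67e-05 in edgeR) was under the fold change minimum, and its groups did not overlap. Of the 12 effector genes none was called by edgeR, DESeq2 or limma voom, and 8 had an unadjusted p under 0.05 in edgeR. With no minimum fold change, 4 effector genes had an adjusted p under 0.05 in edgeR, and these were split in direction. The phospholipase genes Plcb2 and Plcb4 had log2 fold changes of -0.44 and -0.39 with adjusted p of 0.0328 and 0.0122. Arhgef11, an exchange factor downstream of G12/13 alpha, and the potassium channel gene Kcnj9 had log2 fold changes of 0.31 and 0.26 with adjusted p of 0.00764 and 0.0247, and of the 4 genes Arhgef11 alone had groups that did not overlap. With 1 mouse left out, Plcb2 was called lower without EtOH 5, and the channel genes Kcnj5 and Kcnj6 were called higher without Control 2 and Control 5 respectively. With the replicate number added to the edgeR fit as a block, Plcb2 was called lower and Kcnj6 higher. The median log2 fold change of the 12 effectors was 0.17. The orphan receptor gene Gpr158, an anchor of R7 RGS proteins, differed by -0.16 in log2 (adjusted p = 0.0369 in edgeR).

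Since the striatum markers separated the groups, the members were also set against the striatum score, the average log2 CPM over its 15 markers, none of which is a member, within the 7 Control mice alone. The score lay between 4.35 (Control 7) and 5.72 (Control 2) in Control and between 1.39 and 2.30 in EtOH mice. Over 98 relations (49 members and 2 scores), 1 passed Benjamini-Hochberg adjustment, that of Rgs9 with the striatum score, with Pearson's r = 0.994 (exact permutation test, two-sided, p = 0.000198, adjusted p = 0.0194, n = 7) and Spearman's rho = 1.0 (exact permutation p = 0.000397, adjusted p = 0.0389). With 7 mice no lower p than 0.000198 was possible in this exact permutation test. Without Control 2 and Control 7, the mice farthest from the median score, r was 0.981. Gng7 had r = 0.970 (exact permutation p = 0.00119, adjusted p = 0.0583) and rho = 0.929 (exact permutation p = 0.00675, adjusted p = 0.165), and r = 0.931 without the same mice. For Gnal, r was 0.873 (exact permutation p = 0.0300, adjusted p = 0.378) and rho 0.357 (exact permutation p = 0.444, adjusted p = 0.854), and r was 0.623 without these mice. Gnb5, Rgs20 and Rgs4 had r of 0.668, 0.473 and -0.0766 with the striatum score (rho of 0.714, 0.536 and 0.0357), each with an adjusted p of 0.453 or more from the exact permutation test. Rgsl1, called higher, had r = -0.05 and rho = -0.107 (exact permutation, adjusted p = 0.959 and 0.968). Relations of similar size to that of Gnal were also found for genes that were not called, none of them past adjustment. Rgs8 had r = 0.888 (rho = 0.643, and r = 0.531 without the same mice), while Gngt2 and Rgs6 had r of -0.809 and -0.804 (rho = -0.929 for each, and r = -0.926 and -0.843 without these mice), each with an adjusted p of 0.342 or more for r and 0.165 or more for rho in the exact permutation test. In all, 7 members had an unadjusted exact permutation p under 0.05 for r with the striatum score. With the hippocampus score 5 members did, and none passed adjustment. Rgs4 was 1 of these, with r = -0.845 (exact permutation p = 0.0175, adjusted p = 0.342) and rho = -0.571 (exact permutation p = 0.200, adjusted p = 0.688), but r was -0.0865 without Control 5 and Control 6, the mice farthest from the median of that score, so the relation rests on those mice. The part of these markers in the differences between the groups was not tested.

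**Figure D4:**
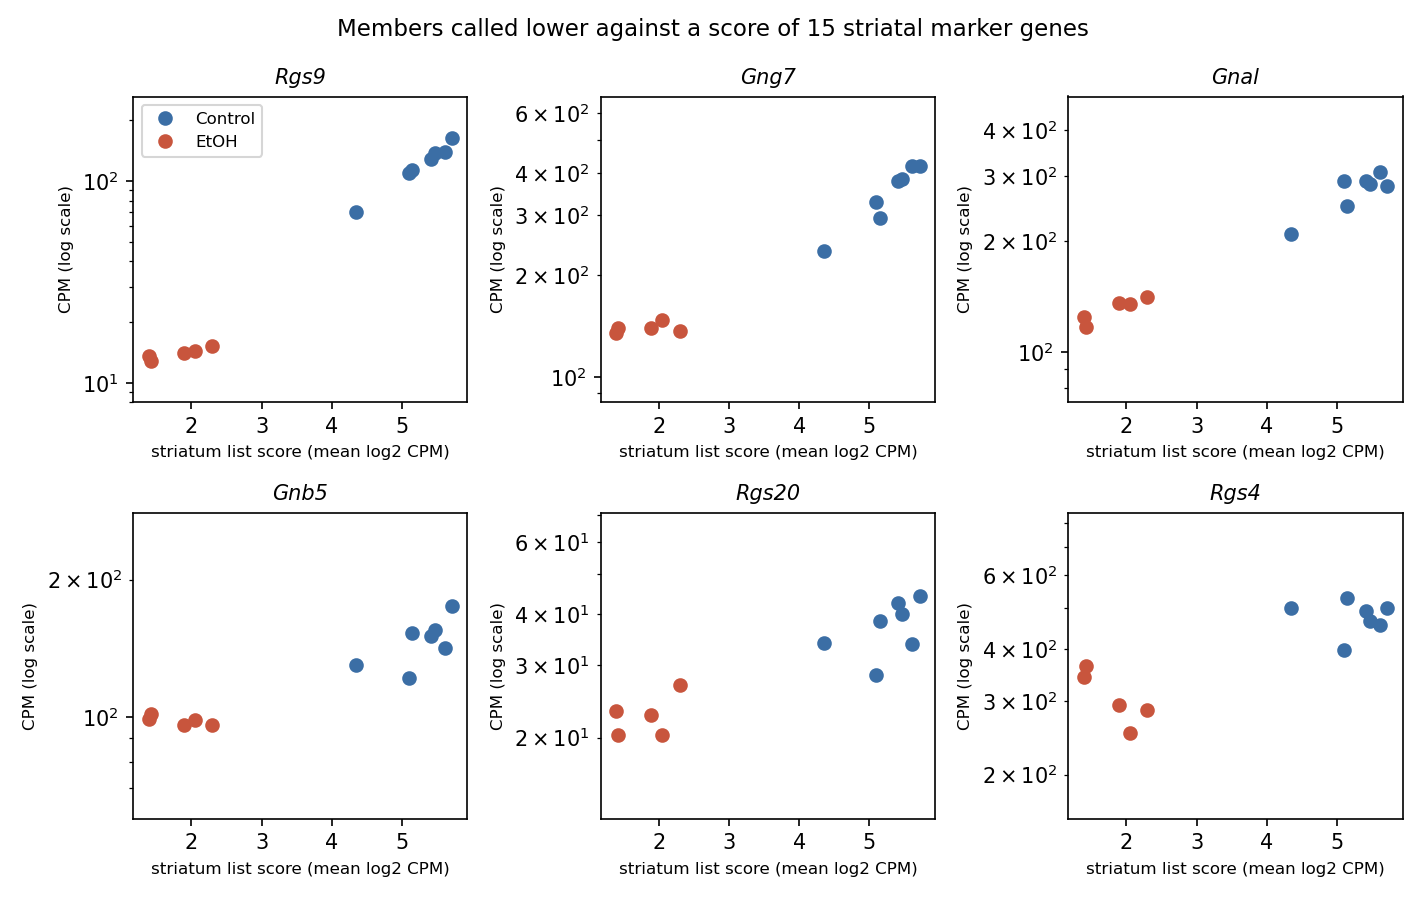
CPM (log scale) of the 6 members called lower against the striatum score (mean log2 CPM of 15 striatal marker genes) in 7 Control mice (blue) and 5 EtOH mice (red). Among Control mice, r was 0.994 for Rgs9, the 1 relation that passed adjustment, 0.970 for Gng7 and -0.0766 for Rgs4, and the EtOH mice lie apart at scores of 1.39 to 2.30 in each panel.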

How the data were processed

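Cortex RNA of 12 mice (7 Control, 5 EtOH) was compared. The authors had libraries made and sequenced by BGI, checked reads with FastQC 0.11.9 (version per the submitters' processing notes), used STAR for alignment (genome GRCm39, Gencode release 28) and featureCounts for gene counts, and took DESeq2 for their own test. The authors deposited 1 table of estimated counts per gene symbol, without normalization. In it 61 symbols, none of them a member, hold values that are not whole, and these were rounded. Strand and multi-mapping settings are not given in the sources used here, so the 31 members whose exons overlap another gene are uncertain. The samples were taken as 1 mouse each, and 0 columns were left unmatched.

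Genes were kept with filterByExpr (16059 genes), normalised by TMM and tested by quasi-likelihood in edgeR 4.0.16 (R 4.3.3), with p-values adjusted by Benjamini-Hochberg over all of them. A call needed an adjusted p under 0.05 with a log2 fold change beyond 0.5. Standard errors are the fold change over the square root of F. Scores used log2 CPM with a prior count of 2. The fits were tested on simulated data. Exon lengths and positions came from Gencode release 39 of GRCm39. Promoter windows are RefSeq's (GRCm38.p6), matched exactly to GRCm39. A window was given for 43 of the 59 members. Windows are shown for Gng7, Rgs9 and Rgs4, and not for the other called members. At 31768076 to 42183029 counts per mouse, members under about 1 CPM rest on few counts. No pair of libraries in a group agreed within sampling noise, the smallest chi-square being 7.88 per degree of freedom.

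The members and lists were chosen with earlier results of these data known. Named genes are the members called, those with an adjusted p under 0.05, the highest per length in each family and a list given by symbol, 24 in all, and Rgs6, Rgs7, Rgs11, Gnat1, Gng5, Gng11, Gngt2 and the pathway genes were added once values were known. Alternatives were RLE and upper quartile factors, DESeq2 1.42.0, voom in limma 3.58.1, other filters (1 count or more in some mouse, or 10 or more in all), other fold change minimums, the replicate block and each mouse left out in turn.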

Additional observations from a re-analysis of the deposited data

Results flagged for a closer look

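Each named gene was searched in each group for 1 mouse lying far from the others. Of 48 such searches 2 found one, where chance finds about 1 in 20, or 2.4. Gng2 in EtOH 5 had a log2 CPM of 7.31, while the other EtOH mice lay between 7.49 and 7.51. Without EtOH 5 the log2 fold change of Gng2 was 0.53, past the minimum of 0.5. Rgs8 in Control 7 had a log2 CPM of 6.40, while the other Control mice lay between 6.64 and 6.78. Control 7 also had the lowest striatum score of the Control mice (4.35).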

How the results depend on the processing

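The 7 called members were called under all 19 alternatives of test, normalisation, filter, block and left-out mouse, and none of them changed sign. Among the named genes, Gna11 and Rgs5, with log2 fold changes near 0, changed sign without reaching an adjusted p under 0.05, lying between -0.03 and 0.04 for Gna11 and between -0.05 and 0.03 for Rgs5. Called lower were 6 members, 6 to 7 with 1 mouse left out (Gng11 was added without EtOH 2 and Rgs2 without EtOH 5), 6 with the replicate block, 14 with no minimum fold change and 3 (Gnal, Gng7 and Rgs9) with a minimum of 1. Called higher was 1, 1 with the replicate block, 4 with no minimum fold change and 1 to 3 with 1 mouse left out, since Gng2 crossed the minimum (0.50 to 0.53) without Control 1, 3, 4, 5 or 6 or EtOH 5, and Rgs22 was also called without Control 5. The same alternatives were run on the 31 other pathway genes, which was chosen after seeing the data. Those called lower numbered 1, 2 with the replicate block (Plcb2 was added), 7 with no minimum fold change, 0 with a minimum of 1 and 1 to 2 with 1 mouse left out (Plcb2 was added without EtOH 5). Those called higher numbered 1, 2 with the replicate block (Kcnj6 was added), 4 with no minimum, 0 with a minimum of 1 and 1 to 2 with 1 mouse left out (Kcnj5 without Control 2, Kcnj6 without Control 5). The cause of these changes was not tested, beyond the thresholds themselves. With 1 mouse left out, the log2 fold change lay between -3.23 and -3.05 for Rgs9, -1.41 and -1.28 for Gng7, -1.13 and -1.04 for Gnal, and 0.95 and 1.09 for Rgsl1. None of the 19 alternatives of test, normalisation, filter, block and left-out mouse moved the median log2 fold change of all genes by more than 0.0085. With the replicate block the adjusted p of Gna12 was 0.101 and that of Gng3 0.0692. Mice of both groups share the numbers 1 to 5, but same-numbered mice did not deviate together (correlations from -0.108 to 0.0182), so the numbers were not read as pairs. In the replicate block, Control 6 and Control 7 have no same-numbered EtOH mouse. That fit therefore compares the groups through the mice numbered 1 to 5 only.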
